A study of Mus musculus with 24 samples.

Results

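BURP-19NE is a mouse bladder tumor line that its name marks as neuroendocrine (NE)-like, and its RNA was set against that of the basal/squamous (Ba/Sq) lines of the same collection. The 3 tumors of BURP-19NE were compared with the 18 tumors of BURP-12BaSq, BURP-17BaSq, BURP-18BaSq, BURP-21BaSq, BURP-24BaSq and BURP-25BaSq, so 21 of the 24 tumors and 7 of the 8 lines of the series were used, and the 3 tumors of the stromal-rich line BURP-16SR were kept for reference. Members were chosen by the line on the label and by no measured value. All lines came from C57BL/6NTac mice that drank water with 0.1% BBN (N-butyl-N-(4-hydroxybutyl)nitrosamine, a bladder carcinogen), from 8 weeks of age and for up to 36 weeks, and the tumors were then passaged under the skin of C57BL/6NTac hosts of the same sex. No line carries an engineered allele. BURP-19NE, BURP-16SR and the first 3 Ba/Sq lines are given as male (9 Ba/Sq tumors) and the other 3 Ba/Sq lines as female (9 tumors). The 3 BURP-19NE tumors are labelled C80-M1, C80-M3 and C80-M30, and their values are given in this order throughout. They are tumors of 1 line, so p-values measure the spread between tumors and not the spread between NE-like lines. RNA was taken from whole tumors with host cells in them, and in such bulk samples fewer cells of a type and less RNA per cell cannot be told apart.

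Basal urothelial and squamous cells are held together by desmosomes, adherens junctions and tight junctions and attached to the basement membrane by hemidesmosomes. Their identity is kept by a small set of transcription factors, among them Trp63 (p63), the grainyhead-like factors Grhl1 to Grhl3 and the Ets factors Elf3 and Ehf. Epithelial cells that undergo epithelial-mesenchymal transition (EMT) lose the junctions and express repressors such as Zeb1, Zeb2, Snai1 and Snai2, which bind E-box letters in promoters of junction genes. Neuroendocrine carcinoma cells make secretory granule and synaptic proteins such as chromogranins and synaptophysin under factors such as Neurod1 and Insm1.

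Total counts per tumor lay between 16482941 and 20702009 in BURP-19NE and between 9295747 and 25370356 in the Ba/Sq tumors. Levels below are CPM, counts scaled to a common library size, after TMM scaling over the 21 tumors. The levels of BURP-16SR come from a separate TMM scaling over all 24 tumors, so they stand beside the others only approximately. CPM are not divided by gene length, so levels are compared between tumors and not between genes. The counts are RSEM estimates, and genes with near-identical copies (Krt6a and Krt6b, the Gsta, Gstp, Sprr and S100a families, H2-K1) are less certain because their reads can be split. In C102-M30 of BURP-25BaSq, 68.0% of counts lay on ribosomal RNA genes, which left an effective library of 2149950 counts. Tumor C102-M1, labelled BURP-25BaSq, correlated more closely with BURP-21BaSq (mean r = 0.976) than with its own line (0.917), but both are Ba/Sq lines, so its group here does not depend on this. The BURP-19NE tumors correlated with each other at mean r of 0.984 to 0.985 and with the Ba/Sq tumors at 0.832 to 0.844, across genes. Of the 6 Ba/Sq lines BURP-18BaSq was the closest to them (0.849 to 0.855).

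Sex-linked genes were set against the sex of the lines, which the study gives and the labels do not. The Y-linked genes Ddx3y, Eif2s3y, Kdm5d and Uty were at 2.11 to 4.30, 0.74 to 1.52, 0.899 to 2.79 and 1.74 to 2.32 CPM in BURP-19NE and at no more than 0.0776 CPM in any female Ba/Sq tumor. Xist, which is expressed from the inactive X chromosome, was at 0.264 to 0.434 CPM in BURP-19NE and at 195 to 3451 CPM in the female lines. The 3 tumors of BURP-12BaSq, a line given as male, held both, with Xist at 177 to 563 CPM and Ddx3y at 25.05 to 42.4 CPM. The Xist level went against that sex, while the Y-linked level did not. The other male Ba/Sq lines, BURP-17BaSq and BURP-18BaSq, had Ddx3y at 1.37 to 17.2 and 0.422 to 8.39 CPM, and Xist at 15.4 to 19.7 and 0.276 to 0.76 CPM. The group of BURP-12BaSq here, Ba/Sq, does not rest on its sex, and without it 4703 of the 5029 calls of the comparison below that could be tested were called in the same direction. Against the 9 tumors given as male this was 3870 of 4858, and against the 6 of them outside BURP-12BaSq 3448 of 4622.

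A gene was called when edgeR's quasi-likelihood test gave a Benjamini-Hochberg adjusted p under 0.05 and the absolute log2 fold change exceeded 1. Of 20995 genes tested, 9.33% were called higher in BURP-19NE and 15% lower, and the median log2 fold change over all of them was -0.14. In 10% of genes all 3 BURP-19NE tumors lay above all 18 Ba/Sq tumors, and in 8.20% all 3 lay below. These shares are the background for every list of genes below. Fewer genes were called where the line rather than the tumor was the unit, with 489 higher and 598 lower from counts summed per line, and 670 lower from limma-voom with line as a random effect (correlation of tumors of 1 line 0.496). The same limma-voom fit called 1601 genes higher, against 1958 in the main fit, so it lost mainly decreases. Without C80-M3 2016 genes were called lower, and without C80-M1 2092. Log2 fold changes are BURP-19NE minus Ba/Sq, with their standard error. Where 1 group had no count at all the fitted value depends on the small count that edgeR adds, and a bound from 3 counts over the group (0.0476 CPM in BURP-19NE) is given in its place. Such bounds and the 95% intervals given for ratios that rest on 1 to 3 counts cover counting error only.

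**Figure D1:**
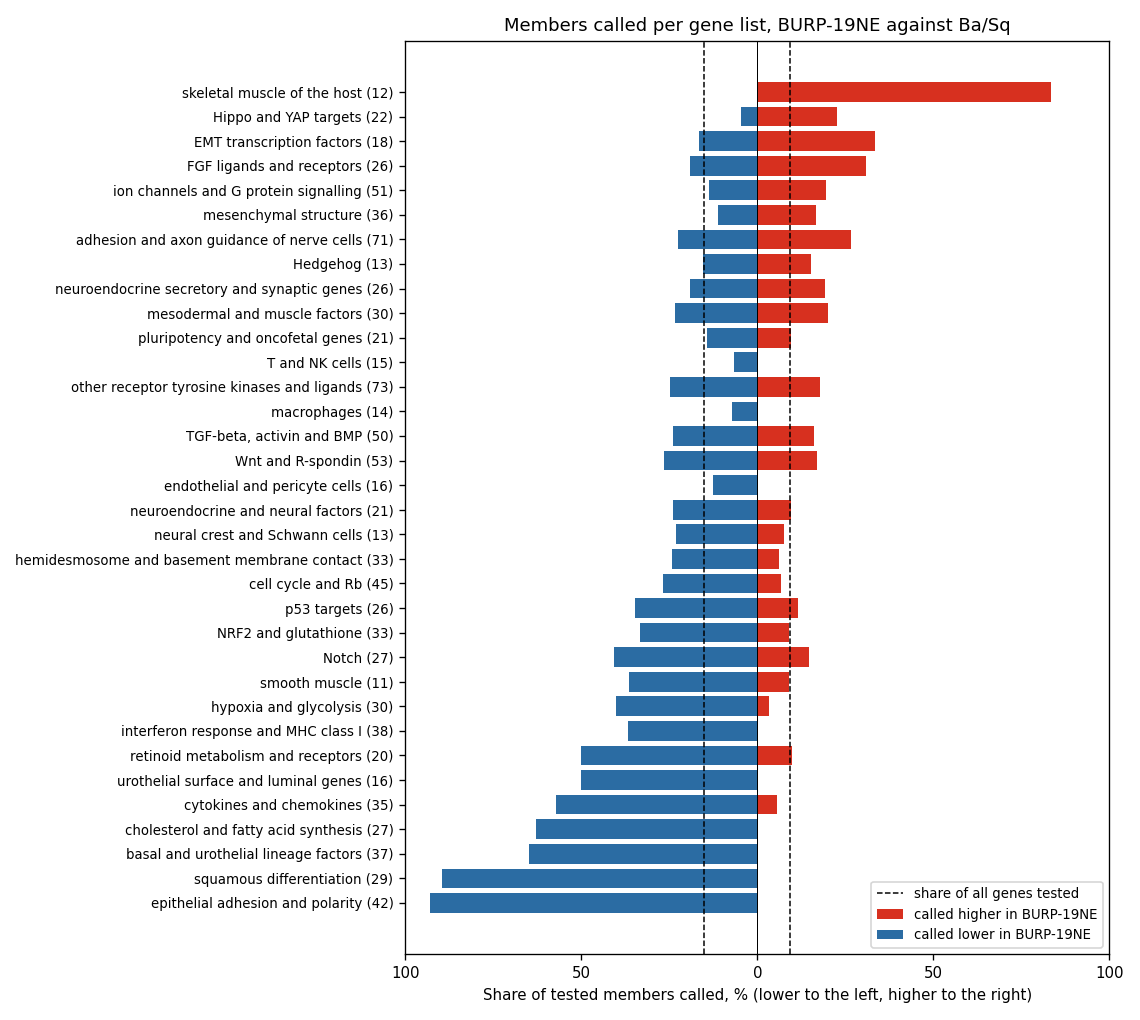
Share of the tested members of each gene list (y axis) that was called higher (red, to the right) or lower (blue, to the left) in BURP-19NE than in the 18 Ba/Sq tumors, in percent (x axis), with dashed lines at the share among all genes tested, 9.33% higher and 15% lower. The squamous, epithelial adhesion and lineage factor lists lie almost wholly on the lower side, while the FGF and Hippo lists lie more to the higher side. The longest bar to the right, skeletal muscle of the host (10 of 12 members), comes from tumor C80-M1, and 0 were called higher without it.

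Genes of epithelial adhesion and polarity were lower in BURP-19NE almost without exception. Of 42 members tested, 39 were called lower and 0 higher, with a median log2 fold change of -8.11, and in 36 of them the groups did not overlap. The summed level of the list was 420, 445 and 374 CPM in the 3 BURP-19NE tumors, against 5888 to 15622 CPM (median 9664) in the Ba/Sq tumors. Cdh1 (E-cadherin, the adherens junction cadherin of epithelia, ENSMUSG00000000303.12, chromosome 8, 106603351 to 106670246) stood at 0.565, 1.53 and 2.08 CPM in BURP-19NE and at 206 to 833 CPM (median 472) in Ba/Sq tumors (log2 fold change -8.46 ± 0.63, adjusted p = 1.57e-09). Dsp (desmoplakin, which ties desmosomes to keratin filaments) was at 1.303, 2.70 and 1.56 CPM against 1201 to 6051 CPM (median 3110.3) (log2 fold change -10.81 ± 0.74). In both genes every BURP-19NE tumor lay far below every Ba/Sq tumor. The 39 decreases came to 26 with counts summed per line and 20 with line as a random effect.

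The desmosomal cadherins Dsc2 and Dsg2 had no count in any BURP-19NE tumor. Their levels in the Ba/Sq tumors were 27.7 to 835 CPM (median 162) and 0.519 to 177 CPM (median 47.9), which makes them at least 5739-fold and at least 1368-fold lower. Dsg3, another desmosomal cadherin, had 1 count in BURP-19NE and 36.8 to 808 CPM (median 423) in the Ba/Sq tumors, a ratio of 25106-fold (counting interval 4506 to 991640.0). Epcam, an adhesion molecule of epithelial cells and carcinomas, was without a count in BURP-19NE and at 21.5 to 193 CPM (median 96.5) in the Ba/Sq tumors (at least 2309-fold lower). None of these genes overlapped between the groups. The same held for the tight junction genes Ocln (occludin, 0 counts in BURP-19NE against 2.07 to 65.9 CPM (median 20.9)) and Cldn4 (claudin 4, 2 counts against 15.6 to 472 CPM (median 147)). The 3 members that were not called included Patj, a polarity scaffold, and Pkp2, a plakophilin. Pkp2 was at 13.8, 16.4 and 10.2 CPM in BURP-19NE, within the Ba/Sq range of 0.465 to 33.9 CPM (median 4.09).

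Promoters of 4 called adhesion genes, picked because each holds the E-box letters CAGGTG at least 2 times, are shown so that the letters can be seen in place. The sequences are RefSeq's for the build GRCm38.p6, 250 bases before to 50 after a start, and each is printed 5′ to 3′ on the gene's strand with the letters CAGGTG, or CACCTG where they lie on the other strand, in capitals. The promoters of Epcam (chr17:87635729-87636028, plus strand), Cldn4 (chr5:134946885-134947184, minus strand), Cdcp1 (a surface glycoprotein, chr9:123215989-123216288, minus strand) and Ap1m2 (an adaptor for basolateral sorting in epithelia, chr9:21312284-21312583, minus strand) read
Epcam: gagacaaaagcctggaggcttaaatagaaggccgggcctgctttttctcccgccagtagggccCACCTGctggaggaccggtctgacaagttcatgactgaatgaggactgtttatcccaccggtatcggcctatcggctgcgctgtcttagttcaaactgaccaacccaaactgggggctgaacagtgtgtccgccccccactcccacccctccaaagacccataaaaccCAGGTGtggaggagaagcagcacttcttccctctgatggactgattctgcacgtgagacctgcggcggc
Cldn4: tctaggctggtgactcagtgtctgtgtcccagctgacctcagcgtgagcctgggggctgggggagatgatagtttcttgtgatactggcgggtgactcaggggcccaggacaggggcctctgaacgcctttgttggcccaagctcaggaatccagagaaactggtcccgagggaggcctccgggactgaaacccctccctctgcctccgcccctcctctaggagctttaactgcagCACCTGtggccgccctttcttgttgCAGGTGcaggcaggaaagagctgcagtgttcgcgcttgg
Cdcp1: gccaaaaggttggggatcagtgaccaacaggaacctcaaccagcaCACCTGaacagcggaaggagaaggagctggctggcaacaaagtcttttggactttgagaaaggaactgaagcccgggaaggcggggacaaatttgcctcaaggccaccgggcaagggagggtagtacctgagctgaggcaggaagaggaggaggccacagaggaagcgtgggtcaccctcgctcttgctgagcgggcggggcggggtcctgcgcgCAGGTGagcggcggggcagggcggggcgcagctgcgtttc
Ap1m2: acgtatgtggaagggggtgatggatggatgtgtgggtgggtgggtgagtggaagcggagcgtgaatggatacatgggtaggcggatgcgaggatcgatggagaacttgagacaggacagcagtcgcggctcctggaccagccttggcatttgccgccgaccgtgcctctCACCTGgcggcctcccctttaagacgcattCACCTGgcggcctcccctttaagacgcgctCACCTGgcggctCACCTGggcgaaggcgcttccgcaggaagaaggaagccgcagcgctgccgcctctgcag
In Epcam the letters began 187 and 19 bases before the start, in Cldn4 14 bases before and 11 after, in Cdcp1 205 before and 10 after, and in Ap1m2 81, 51, 21 and 9 before. Of the 39 called members, 21 had a promoter listed by RefSeq in that table, and 16 of these 21 genes (76.2%) had the letters in at least 1 promoter. Among all 27025 genes in the table the share was 22.6%, among listed genes that were tested 21.8%, among other genes called lower 29.7% and among genes called higher 21.2%. The promoters of the members had a median GC content of 61.7%, against 59.7% for the genes tested and 52.7% for all promoters. A match of letters is a description of the sequence and no evidence of binding. All 4 were chosen for display after their sequences were seen, and Cdcp1 and Ap1m2 also after their values. Cdcp1 was at 0.0434, 0 and 0.0473 CPM against 82.5 to 279.9 CPM (median 158), and Ap1m2 at 0, 0 and 0.0473 CPM against 0 to 73.1 CPM (median 31.9), where 1 or more Ba/Sq tumors had no count either.

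Transcription factors of basal and urothelial identity followed in part. Of 37 such factors tested, 24 were called lower and 0 higher (median log2 fold change -4.83), and the groups did not overlap in 22. With line as a random effect 10 were called lower, and with counts summed per line 18. Trp63, the factor that specifies basal and squamous cells (ENSMUSG00000022510.14, chromosome 16, 25683763 to 25892102), was at 0.565, 0.159 and 0.426 CPM in BURP-19NE and at 181 to 911 CPM (median 377) in Ba/Sq tumors (log2 fold change -9.98 ± 0.62, adjusted p = 9.12e-11). Grhl2, an activator of junction genes, was at 0.13, 0.211 and 0.0473 CPM against 32.0 to 142 CPM (median 100.5) (log2 fold change -9.51 ± 0.55, adjusted p = 2.85e-11). In both genes the Ba/Sq tumors stood far above all BURP-19NE tumors. The study reports high TP63 protein in BURP-19NE by immunostaining, which the Trp63 RNA does not show.

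The homeobox factor Barx2 and the grainyhead-like factor Grhl3 had no count in BURP-19NE, against 16.4 to 139 CPM (median 83.9) and 11.9 to 164 CPM (median 52.6) in the Ba/Sq tumors, and were at least 1689.5-fold and at least 1424-fold lower. Esrp1, an epithelial splicing regulator kept in the same list, had 0 counts against 60.8 to 311 CPM (median 167) (at least 3698-fold lower). Elf3, an epithelial Ets factor, had 1 count in BURP-19NE against 20.3 to 405 CPM (median 154), a ratio of 8845-fold (counting interval 1588 to 349380.0). No BURP-19NE tumor reached the lowest Ba/Sq tumor in any of these genes. Further factors among the 10 largest decreases over 420 transcription factors tested were Pitx1 (0.0434, 0.0529 and 0.0946 CPM against 76.2 to 443 CPM (median 252)), Tfap2c (0 counts against 0.282 to 29.7 CPM (median 11.5)) and Elf5 (2 counts against 0.828 to 62.9 CPM (median 18.9)). Tfap2c and Elf5 act in epithelial and trophoblast development. None of the 3 overlapped between the groups.

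The other 13 factors were not called, and several of them stood at comparable levels in both groups. Foxa1, a luminal urothelial factor, was at 51.3, 69.5 and 41.7 CPM in BURP-19NE and at 14.04 to 101 CPM (median 44.5) in Ba/Sq tumors (log2 fold change 0.13 ± 0.36, adjusted p = 0.81). Gata3, another urothelial factor, was at 114, 121 and 122 CPM against 12.8 to 148.4 CPM (median 39.1) (log2 fold change 1.21 ± 0.56, adjusted p = 0.102). In both genes the BURP-19NE tumors lay within the Ba/Sq range, but for Gata3 only C102-M3 and C102-M30 of BURP-25BaSq reached them. Klf5, Tfap2a, Sox2 and Runx1 had log2 fold changes of -0.25 ± 0.22, -0.26 ± 0.21, 0.08 ± 0.36 and -0.14 ± 0.38, and their BURP-19NE levels of 302 to 372, 48.5 to 61.8, 27.4 to 38.4 and 273 to 336 CPM also lay within the Ba/Sq ranges. Urothelial surface and luminal genes had 8 of 16 tested members lower and 0 higher, among them the surface antigen Psca, with 1 count in BURP-19NE against 26.8 to 2198 CPM (median 307), and Krt8, the luminal keratin, at 0, 0 and 0.284 CPM against 0 to 158 CPM (median 33.5). These 8 decreases came to 1 with counts summed per line, 0 with line as a random effect and 5 without C80-M1. Squamous differentiation genes had 26 of 29 lower, and Serpinb5 (maspin, 0 counts against 15.9 to 162 CPM (median 119)) had no overlap. Without C80-M3 18 of the squamous genes were called lower, without C80-M30 also 18, and with line as a random effect 3.

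**Figure D2:**
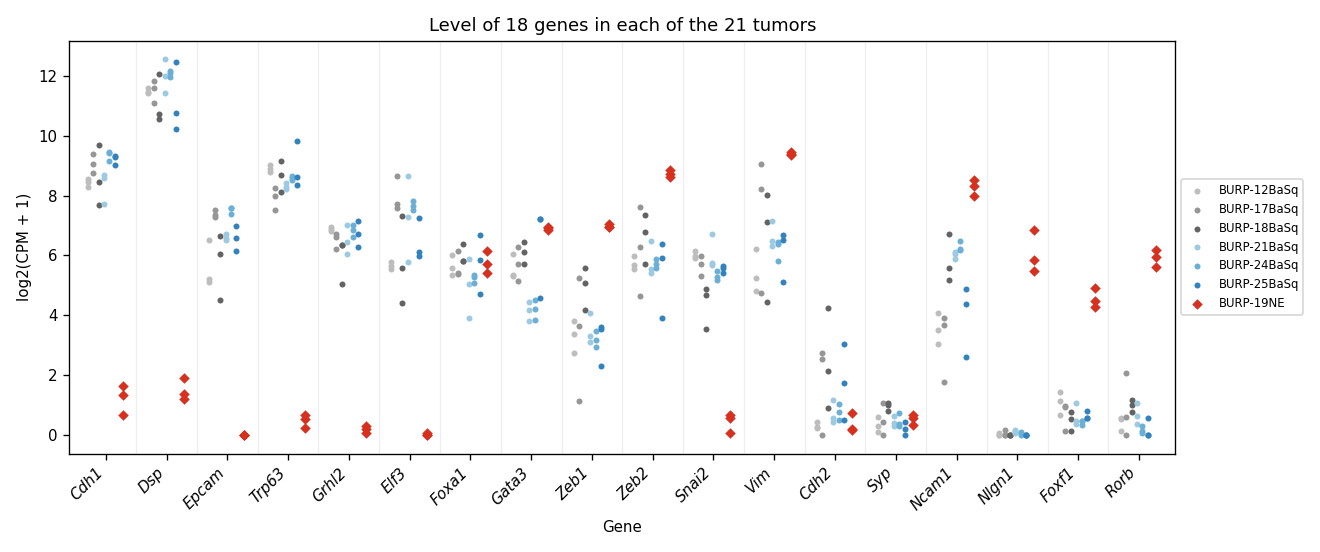
Level of 18 genes (x axis) in each of the 21 tumors as log2(CPM + 1) (y axis), with male Ba/Sq lines in grey, female Ba/Sq lines in blue and the 3 BURP-19NE tumors as red diamonds. Red diamonds lie at the bottom for Cdh1, Dsp, Epcam, Trp63, Grhl2, Elf3 and Snai2, above all other points for Zeb1, Zeb2, Nlgn1, Foxf1 and Rorb, and among the others for Foxa1, Gata3 and Syp.

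The EMT factors differed in both directions. Of 18 tested, 6 were called higher and 3 lower (median log2 fold change -0.78), and in all 6 that rose the groups did not overlap. Zeb1, a repressor of epithelial genes (ENSMUSG00000024238.14, chromosome 18, 5591860 to 5775467), was at 124.2, 133 and 122 CPM in BURP-19NE against 1.21 to 46.97 CPM (median 10.4) in Ba/Sq tumors (log2 fold change 3.14 ± 0.51, adjusted p = 8.24e-05). Zeb2, its close relative, was at 427, 462 and 394 CPM against 13.96 to 196 CPM (median 54.9) (log2 fold change 2.61 ± 0.41, adjusted p = 4.81e-05). Every BURP-19NE tumor exceeded the highest Ba/Sq tumor in both genes. Foxc2 (26.5, 19.2 and 23.6 CPM against 0.0884 to 4.97 CPM (median 1.12)), Prrx2 (7.82, 5.60 and 17.97 CPM against 0 to 4.39 CPM (median 0.88)) and Twist1 (57.9, 63.6 and 64.6 CPM against 2.33 to 40.97 CPM (median 10.5)) also rose without overlap, Twist1 being named after its values were seen. They are factors of mesoderm and of limb and craniofacial mesenchyme.

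Snai2 (Slug) was at 0.565, 0.0529 and 0.473 CPM in BURP-19NE and at 10.6 to 104 CPM (median 47.7) in Ba/Sq tumors (log2 fold change -6.999 ± 0.69, adjusted p = 1.31e-07). Snai3 had 2 counts in BURP-19NE against 0.0427 to 15.6 CPM (median 2.98), and the forkhead factor Foxc1 was at 17.6, 13.8 and 13.4 CPM against 12.3 to 159.5 CPM (median 67.4). The groups did not overlap in Snai2 but did in Snai3 and Foxc1. Snai1 was not called, with 0.478, 0.106 and 0.851 CPM against 0.309 to 5.18 CPM (median 1.01) and a log2 fold change of -1.50 ± 0.76. Snai2 was called in all settings tried, while Snai3 and Foxc1 lost their calls with counts summed per line and with line as a random effect. Over the EMT list, the 6 increases came to 3 and 5 in these settings and the 3 decreases to 1 in each.

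Of 36 genes of mesenchymal structure, 6 (16.7%) were called higher and 4 (11.1%) lower. The median log2 fold change of the list was -1.107, against -0.141 over all genes, so the typical member was lower. Vim (vimentin, the intermediate filament of mesenchymal cells) was at 656, 676 and 703 CPM against 20.7 to 538 CPM (median 84.1) (log2 fold change 2.49 ± 0.61, adjusted p = 0.00335), and Axl, a receptor kinase, was at 813, 825 and 611 CPM against 17.0 to 431 CPM (median 68.5) (log2 fold change 2.54 ± 0.67). Neither overlapped. Fn1 (fibronectin) was at 5349.7, 3086 and 1229.8 CPM against 65.1 to 2620.4 CPM (median 380.0), so that the lowest BURP-19NE tumor lay within the Ba/Sq range. Cdh2 (N-cadherin) was not called, with 0.13, 0.106 and 0.662 CPM against 0 to 18.1 CPM (median 0.761), and the fibrillar collagen Col1a1 was at 201, 10.4 and 248 CPM against 96.9 to 3386 CPM (median 444). The contractile genes Acta2 and Tagln were lower (log2 fold change -2.82 ± 0.77 and -2.47 ± 0.80), as was Tnc (tenascin C, 72.6, 7.35 and 89.1 CPM against 68.7 to 1162 CPM (median 472)), and all 3 overlapped between the groups. When C80-M3 was left out 2 members were called lower, and with the male Ba/Sq lines alone 2 members were called higher, with or without BURP-12BaSq. Vim lost its call with the male lines alone, with counts summed per line and with line as a random effect, and Axl in the first 2 of these. In all, the 6 increases and 4 decreases came to 0 and 0 with counts summed per line and to 4 and 1 with line as a random effect.

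The label NE-like, which the study took from a classifier of whole transcriptomes, was set against the RNA of neural and neuroendocrine genes. Most of the defining markers were not raised in RNA. Of 50 neural and neuroendocrine factors, 21 had enough counts to be tested, and 2 were called higher and 5 lower. St18, a zinc finger factor of the Myt1 family, was at 0.869, 0.793 and 2.18 CPM against 0 to 0.272 CPM (median 0.0504) (log2 fold change 3.92 ± 0.57), with no overlap. Syp (synaptophysin) was at 0.261, 0.476 and 0.568 CPM in BURP-19NE and at 0 to 1.10 CPM (median 0.328) in Ba/Sq tumors (log2 fold change -0.01 ± 0.72, adjusted p = 0.993), and Chga (chromogranin A) had 5 counts over the 3 tumors. By immunostaining, the study reports high synaptophysin protein in this line and takes it as evidence for the label. The RNA level does not show this, and RNA and protein are unlike measures. Insm1 and Neurod1 had 0 counts in BURP-19NE, which allows up to 0.0476 CPM each. Eno2 and Uchl1, neuronal enzymes, had log2 fold changes of 0.10 ± 0.40 and 0.65 ± 0.80 and were not called.

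Among the factors that fell, Pou3f1 had 0 counts in BURP-19NE against 0.162 to 31.9 CPM (median 7.22), and Sox11 was at 0.13, 0.37 and 0.284 CPM against 0.365 to 158 CPM (median 49.0). Pou3f1 was without overlap, and Sox11 overlapped. Pax6 and Pou4f1 were lower (log2 fold change -5.10 ± 1.82 and -4.44 ± 1.11) and overlapped. These 5 decreases are less firm than the 2 increases, since 0 were called in a fit of counts summed per line, 0 in limma-voom with line as a random effect, and 3 without C80-M3.

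Synaptic and secretory genes were split. Of 26 tested, 5 rose and 5 fell (median log2 fold change -0.07), which came to 2 and 0 with counts summed per line and 6 and 0 with line as a random effect. Nlgn1 (neuroligin 1, a postsynaptic adhesion molecule) was at 56.6, 114 and 44.1 CPM in BURP-19NE against 0 to 0.116 CPM (median 0) (log2 fold change 10.86 ± 0.47, adjusted p = 2.27e-13), and Kif5c, a neuronal kinesin, at 8.77, 15.1 and 29.0 CPM against 0.422 to 2.17 CPM (median 1.17) (log2 fold change 3.87 ± 0.39). Ncam1, the neural cell adhesion molecule CD56 used in pathology to mark neuroendocrine tumors, was at 370.0, 322 and 256 CPM against 2.42 to 104 CPM (median 32.0) (log2 fold change 2.96 ± 0.62, adjusted p = 0.000971). The groups did not overlap in these 3 genes. Syt1 (synaptotagmin 1) was at 1.95, 1.37 and 3.36 CPM against 0 to 1.72 CPM (median 0.162), with overlap. Snap25, part of the vesicle fusion machinery, had 1 count against 0.138 to 10.7 CPM (median 0.854), Tubb3 (neuronal tubulin) was at 0.869, 0.74 and 1.94 CPM against 2.85 to 37.8 CPM (median 10.9), and Stmn2 and Gng4 were lower with overlap. The summed level of the list, 1469.5, 1097 and 1165 CPM against 147 to 838 CPM, leans on Peg10, a retrotransposon-derived gene at 841, 406 and 648 CPM in BURP-19NE and 0 to 542 CPM (median 0.702) in the Ba/Sq tumors, which was not called (adjusted p = 0.0974). Of 13 neural crest and Schwann cell genes tested, Gpm6b rose (log2 fold change 1.52 ± 0.43) and Ngfr, Erbb3 and Pmel fell, and Sox10 had 2 counts in BURP-19NE.

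Over 420 transcription factors tested from 610 in the families and lists, 49 were called higher and 101 lower, and in 49 and 57 the groups did not overlap in the respective direction. The largest increase was in Rorb, an orphan nuclear receptor of neural tissue, at 60.1, 48.0 and 71.0 CPM against 0 to 3.22 CPM (median 0.443) (log2 fold change 6.62 ± 0.69, adjusted p = 2.45e-07). The forkhead factors Foxf1 and Foxl1, which act in gut and lung mesenchyme, were at 21.3, 18.2 and 28.9 CPM against 0.0808 to 1.71 CPM (median 0.476) and at 4.65, 5.39 and 5.53 CPM against 0 to 0.76 CPM (median 0.0636). Zfhx4 was at 403, 349 and 298 CPM against 2.07 to 88.2 CPM (median 22.3). No Ba/Sq tumor reached BURP-19NE in any of the 4 genes. Also among the 10 largest increases were Nkx6-3 (0.695 to 1.47 CPM in BURP-19NE, up to 0.169 in Ba/Sq), Ebf4 (9.93 to 15.5, up to 2.03) and Atoh8 (2.70 to 8.80, up to 1.20), beside Foxc2 and St18.

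By family, the AP-1, Maf and Cebp genes had 7 of 22 called lower and 0 higher, among them Jun (42.4, 34.0 and 19.5 CPM against 124.2 to 635 CPM (median 181)) and Fos (20.8, 9.62 and 12.1 CPM against 12.2 to 531 CPM (median 66.2)), both named after their values were seen. Jun did not overlap and Fos did. The 7 decreases came to 1 with counts summed per line, 2 with line as a random effect and 3 without C80-M3 or C80-M30. Hox genes had 6 higher and 6 lower of 35. The 6 increases shrank to 1 without C80-M1 and to 2 without C80-M3 or C80-M30, the 6 decreases to 2, 1 and 2, and with counts summed per line 0 of either were called. Basic helix-loop-helix genes had 7 higher and 16 lower of 46, forkhead genes 5 and 7 of 30, and nuclear receptors 5 and 5 of 37. With counts summed per line these came to 2 and 2, 3 and 2, and 2 and 0.

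Mesodermal and muscle factors had 6 higher and 7 lower of 30 tested. Nr2f1 (COUP-TF1) was at 54.1, 58.8 and 44.5 CPM against 0.345 to 11.6 CPM (median 5.42) (log2 fold change 3.28 ± 0.58), and Gata6 at 20.02, 21.04 and 14.4 CPM against 0.208 to 11.04 CPM (median 2.98) (log2 fold change 2.51 ± 0.57). Both were free of overlap. Foxf2, the relative of Foxf1, moved opposite to it, at 0.347, 0.159 and 0.473 CPM against 2.11 to 22.5 CPM (median 9.40) (log2 fold change -5.02 ± 0.73), also without overlap. Mkx was lower as well (-6.29 ± 1.16). Myod1, Myog and Myf5, which drive skeletal muscle differentiation, had too few counts to be tested. Of 21 pluripotency and oncofetal genes tested, Sall2 and Hmga1 rose (log2 fold change 1.49 ± 0.26 and 1.09 ± 0.37) and Plagl1, Utf1 and Peg3 fell, Plagl1 from 4.41 to 164.99 CPM (median 29.1) to 0.869, 0.793 and 2.46 CPM. Hmga1 lost its call in 13 of 37 settings, among them each fit without 1 BURP-19NE tumor, and with counts summed per line 0 of these 5 genes were called. The 7 decreases of mesodermal and muscle factors came to 3 with counts summed per line, 1 with line as a random effect and 4 without C80-M3, and the 6 increases to 2, 6 and 7.

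Among all protein-coding genes, the 12 largest increases without overlap and with at least 10 CPM in BURP-19NE held several genes known from nerve cells. Rgs6, a regulator of G protein signalling, was at 71.5, 94.0 and 87.3 CPM against 0 to 0.311 CPM (median 0), and Trpa1, a cation channel of sensory neurons, at 29.8, 31.2 and 34.8 CPM with 3 counts over the 18 Ba/Sq tumors, a ratio of 3586-fold (counting interval 1225 to 17405). Grik2, a kainate glutamate receptor, was at 292, 294 and 195 CPM against 0 to 4.19 CPM (median 0.0902) (log2 fold change 8.39 ± 0.87), and Nalcn, a sodium leak channel, at 63.2, 68.9 and 118 CPM against 0 to 2.06 CPM (median 0.169) (log2 fold change 7.68 ± 0.68). Lrrc7 (densin, a postsynaptic scaffold) was at 59.4, 106 and 64.3 CPM against 0 to 0.675 CPM (median 0.0794), Zfp536, a zinc finger repressor of neuronal differentiation, at 39.4, 40.8 and 32.4 CPM against 0 to 0.582 CPM (median 0), and Amigo2, an adhesion molecule, at 181, 161 and 224 CPM against 0.138 to 4.15 CPM (median 0.467). All 3 BURP-19NE tumors lay at least several-fold above the highest Ba/Sq tumor in each of these genes. Bex1, Gk2 and Naa11 were at 14.4 to 17.5, 15.3 to 17.9 and 24.7 to 27.8 CPM with 1, 1 and 3 counts in all Ba/Sq tumors together. Bex1 is expressed in neurons, while Gk2 (a glycerol kinase) and Naa11 (an acetyltransferase) are testis genes, and Thsd7b, with 29.5, 6.77 and 16.7 CPM against 0 to 0.163 CPM (median 0.0569), completes the 12 with Nlgn1. Gk2, Naa11 and Trpa1 were not particular to BURP-19NE, since BURP-16SR held 21.8 to 28.3, 43.0 to 51.1 and 8.82 to 32.2 CPM of them. Among the 12 largest decreases, beside the keratins, Dsc2, Esrp1, Psca and Cnfn, were Mal2, an apical transport protein, Nccrp1, Rptn and Spink5, all with 0 counts in BURP-19NE and with medians of 110.0, 104, 63.3 and 82.7 CPM in the Ba/Sq tumors.

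Genes of contact with the basement membrane moved in both directions. Of 33 hemidesmosome and basement membrane genes, 8 were lower and 2 higher, and the decreases included Lama3 and Lamb3, which code for chains of an epithelial laminin. Col17a1, the hemidesmosomal collagen, was at 0.869, 1.69 and 1.18 CPM against 446 to 1944 CPM (median 799.8) (log2 fold change -9.61 ± 0.65, adjusted p = 3.69e-10). Itgb4 (integrin β4) was at 6.43, 34.6 and 18.2 CPM against 493 to 2128 CPM (median 757) (log2 fold change -5.52 ± 0.61), and Lamb3 (laminin β3) at 3.87, 4.65 and 2.41 CPM against 91.0 to 758 CPM (median 188) (log2 fold change -6.03 ± 0.68). The groups were fully separate in these 3 genes. Lamb1 (laminin β1, of most other basement membranes) was at 983, 1189.6 and 829 CPM against 36.2 to 358 CPM (log2 fold change 2.94 ± 0.41, adjusted p = 1.17e-05) and Lamc1 (laminin γ1) at 416, 396 and 286 CPM against 96.4 to 316 CPM (median 147) (log2 fold change 1.24 ± 0.26). Lamb1 was without overlap, and Lamc1 overlapped in 1 BURP-19NE tumor. Itgb6 (integrin β6, which activates latent TGF-β) was at 0.478, 0.106 and 0.142 CPM against 0.828 to 74.9 CPM (median 20.5).

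Wnt ligands and receptors changed in both directions. Of 53 tested, 9 rose and 14 fell (median log2 fold change -0.63). Among ligands, Wnt5b was at 8.21, 13.4 and 5.25 CPM against 0.276 to 2.79 CPM (median 0.997) (log2 fold change 2.89 ± 0.45) and Wnt9a at 42.8, 52.1 and 25.6 CPM against 1.68 to 17.7 CPM (median 3.20) (log2 fold change 2.83 ± 0.50). Wnt5a, chosen after its values were seen, was at 439, 514 and 275 CPM against 6.43 to 221 CPM (median 87.6) (log2 fold change 2.15 ± 0.50, adjusted p = 0.00238). All 3 ligands were higher in every BURP-19NE tumor than in any Ba/Sq tumor. Fzd3, a receptor of neural tissue, was at 54.6, 46.4 and 48.1 CPM against 0.566 to 35.2 CPM (median 7.95). The ligands Wnt3a (1 count in BURP-19NE against 0 to 8.71 CPM (median 1.37)) and Wnt16 (0.0869, 0.106 and 0.0946 CPM against 0.544 to 29.3 CPM (median 1.52)), the receptor Fzd10 (0.13, 0.0529 and 0 CPM against 0 to 28.9 CPM (median 4.34)) and the Wnt deacylase Notum (0 counts against 0 to 10.2 CPM (median 0.759)) were lower, and of these 4 Wnt16 alone was without overlap. The target gene Axin2 and the transducer Ctnnb1 were not called (log2 fold change -0.69 ± 0.45 and -0.04 ± 0.29). The 14 decreases came to 7, 6 and 7 when C80-M1, C80-M3 or C80-M30 was left out to 2 with counts summed per line and to 3 with line as a random effect, and the 9 increases to 1 and 7 in the last 2 settings.

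**Figure D3:**
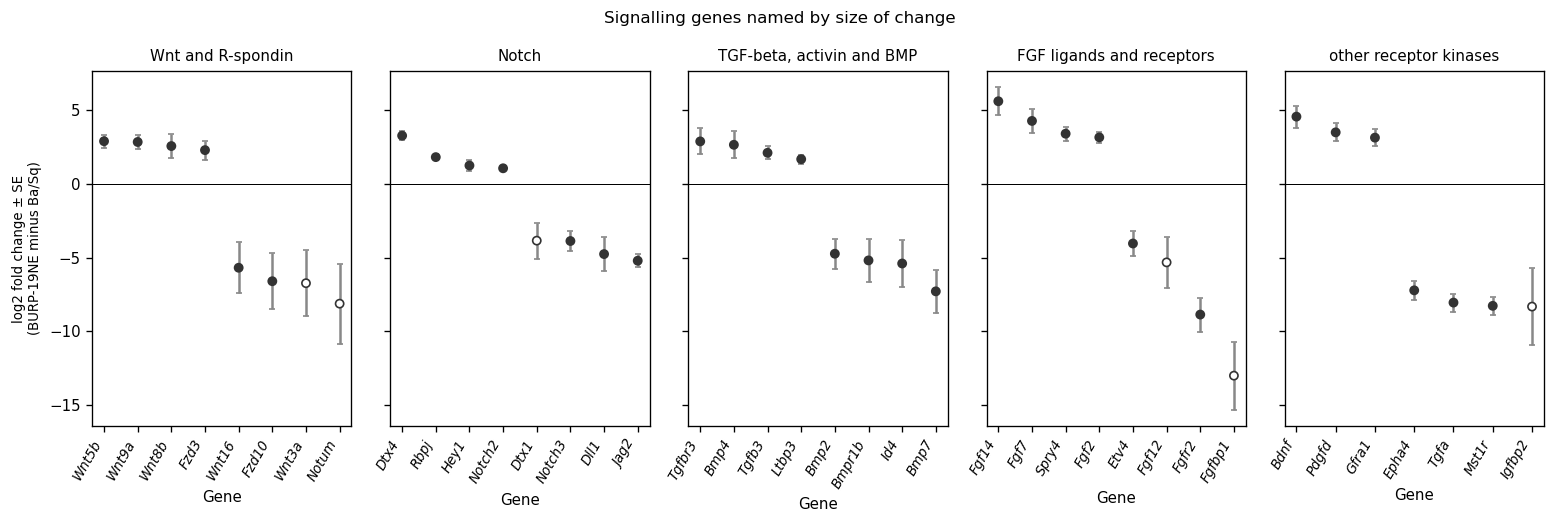
Log2 fold change, BURP-19NE minus Ba/Sq (y axis), with its standard error for called members of the Wnt, Notch, TGF-β, FGF and other receptor kinase lists, 1 panel each with the genes on the x axis, and with open circles where a group had 3 counts or fewer. Each panel holds points on both sides of 0, the most extreme below 0, with Fgfbp1 the lowest point and Fgf14 the highest.

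In the Notch list 4 of 27 rose and 11 fell, and the 11 came to 2 with counts summed per line, 4 with line as a random effect and 7 without C80-M30. The ligand Jag2 was at 4.30, 4.44 and 3.45 CPM against 74.4 to 325 CPM (median 134.2) (log2 fold change -5.22 ± 0.43, adjusted p = 7.20e-09) and the ligand Dll1 at 1.48, 0.687 and 1.09 CPM against 6.46 to 226 CPM (median 16.8) (log2 fold change -4.77 ± 1.16). The receptor Notch3 was at 7.08, 4.44 and 9.41 CPM against 30.1 to 264 CPM (median 99.8), and Notch1, chosen after its values were seen, at 19.2, 9.62 and 26.6 CPM against 47.2 to 375 CPM (median 199) (log2 fold change -3.40 ± 0.49). The receptor Notch2 went up, with 548, 515 and 465 CPM against 162 to 332 CPM (median 234.1) (log2 fold change 1.05 ± 0.17), as did the DNA-binding transducer Rbpj, with 339, 344 and 283 CPM against 48.4 to 144 CPM (median 95.8) (log2 fold change 1.81 ± 0.22). None of these 6 genes overlapped between the groups. Of the target genes, Hes1 fell (log2 fold change -1.24 ± 0.30) and Hey1 rose (log2 fold change 1.24 ± 0.37), and Dtx4, a ligase of the deltex family, was at 147, 156 and 129 CPM against 3.63 to 28.0 CPM (median 14.3). The inhibitory ligand Dll3, a surface protein of small cell carcinoma, had 2 counts in BURP-19NE.

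Of 50 TGF-β, activin and BMP genes, 8 rose and 12 fell. The ligand Tgfb3 was at 150.3, 146 and 157 CPM against 8.84 to 107 CPM (median 29.0) (log2 fold change 2.10 ± 0.43, adjusted p = 0.000784), and the latent binding protein Ltbp3 at 175, 197 and 122 CPM against 23.4 to 92.0 CPM (median 45.8). The co-receptor Tgfbr3 was at 78.4, 119 and 90.6 CPM against 0.84 to 116 CPM (median 4.73), where 1 or more Ba/Sq tumors reached the BURP-19NE range. The receptor Tgfbr2 and the transducer Smad3, chosen after their values were seen, also rose (log2 fold change 1.53 ± 0.39 and 1.57 ± 0.24). BMP ligands were divided, with Bmp4 at 10.2, 11.9 and 21.05 CPM against 0 to 9.37 CPM (median 0.62), Bmp2 at 1.04, 0.529 and 0.615 CPM against 7.51 to 116 CPM (median 10.5) and Bmp7 at 0.13, 0 and 0.0946 CPM against 1.21 to 35.6 CPM (median 9.46). All 3 were without overlap. Bmpr1b and Id4 were lower with overlap (-5.20 ± 1.46 and -5.41 ± 1.58). The 12 decreases came to 2 with counts summed per line or with line as a random effect and to 7 without C80-M3, and the 8 increases to 1, 6 and 6.

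The FGF list had 8 of 26 members higher and 5 lower, with a median log2 fold change of 0.72 against -0.14 over all genes. Fgf2 was at 69.8, 51.1 and 43.9 CPM against 2.18 to 24.5 CPM (median 5.57) (log2 fold change 3.15 ± 0.39, adjusted p = 2.98e-06), Fgf7 (a keratinocyte growth factor made by mesenchyme) at 32.7, 30.3 and 29.99 CPM against 0.0731 to 10.3 CPM (median 0.415) (log2 fold change 4.26 ± 0.83), and Fgf14, an intracellular partner of sodium channels, at 16.1, 27.2 and 26.2 CPM against 0 to 3.55 CPM (median 0.0834) (log2 fold change 5.60 ± 0.94). The groups did not overlap in any of them. Fgfr2, whose epithelial isoform is the receptor for Fgf7, was at 0.347, 0.423 and 0.0473 CPM against 24.1 to 277 CPM (median 137) (log2 fold change -8.87 ± 1.15, adjusted p = 4.78e-06), and Fgfbp1, an FGF carrier, had 0 counts against 7.17 to 187 CPM (median 25.01). Fgfr1, the mesenchymal receptor, was not called (35.2, 27.6 and 18.7 CPM against 5.13 to 129.7 CPM (median 34.0)). The feedback inhibitor Spry4 was at 107, 54.1 and 66.7 CPM against 1.53 to 24.3 CPM (median 4.92) and the Ets factor Etv4 at 0.738, 1.16 and 2.601 CPM against 3.29 to 71.3 CPM (median 22.2), both known as targets of FGF signalling, and they moved in opposite directions without overlap. Of the FGF list, 4 were higher and 1 lower with counts summed per line, and 9 higher and 1 lower with line as a random effect.

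Other receptor tyrosine kinases and ligands had 13 higher and 18 lower of 73. Among ligands, Bdnf, a neurotrophin, was at 54.3, 52.2 and 59.5 CPM against 0.11 to 12.001 CPM (median 1.15) (log2 fold change 4.55 ± 0.75, adjusted p = 8.37e-05). It was above every Ba/Sq tumor, while the receptor Ntrk2 was at 2.74, 0.264 and 1.70 CPM against 0 to 53.1 CPM (median 0.932) and was not called, and Ngfr was lower, with 4 counts in BURP-19NE. Gfra1, the co-receptor of GDNF, was at 32.4, 66.2 and 41.3 CPM against 0.398 to 14.5 CPM (median 4.22), and the ligand Pdgfd at 14.2, 19.4 and 16.1 CPM against 0.0844 to 6.99 CPM (median 0.839). The epidermal growth factor family member Tgfa was at 0.434, 0.159 and 0.331 CPM against 34.9 to 145 CPM (median 86.6) (log2 fold change -8.06 ± 0.62), the receptor Mst1r at 0.13, 0.0529 and 0.189 CPM against 17.1 to 79.9 CPM (median 41.03) (log2 fold change -8.28 ± 0.61), Epha4 at 0.695, 0.74 and 0.52 CPM against 37.2 to 179 CPM (median 106) and Erbb3 at 2.69, 5.07 and 2.74 CPM against 50.5 to 302 CPM (median 144). None of these 4 overlapped. Egfr and Met were not called, with log2 fold changes of -0.40 ± 0.21 and -0.41 ± 0.20. Over this list 4 were higher and 9 lower with counts summed per line, and 12 and 10 with line as a random effect.

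Of 22 Hippo pathway genes, 5 were higher and 1 lower, and 7 and 2 did not overlap in the respective direction. Ankrd1, a YAP target, was at 54.4, 35.9 and 22.3 CPM against 0 to 4.65 CPM (median 0.712) (log2 fold change 5.26 ± 0.75, adjusted p = 1.76e-05), the DNA-binding partner Tead2 at 82.2, 93.0 and 72.9 CPM against 1.78 to 40.5 CPM (median 10.7), the coactivator Wwtr1 (TAZ) at 159, 126 and 138 CPM against 41.5 to 88.5 CPM (median 61.1) (log2 fold change 1.11 ± 0.17), and the kinase Lats2 at 123.9, 118 and 102.2 CPM against 17.99 to 56.9 CPM (median 30.8) (log2 fold change 1.85 ± 0.20). The 4 genes did not overlap. Ccn2, another target of YAP, was not called (13.99, 26.9 and 11.6 CPM against 4.28 to 228 CPM (median 39.9)), nor was Yap1 itself (log2 fold change -0.17 ± 0.18). Vgll3 was lower at an adjusted p that only just passed (log2 fold change -3.35 ± 1.29). Without C80-M1 3 increases were called, and with counts summed per line 2. In the Hedgehog list of 13, the co-receptor Cdon (172, 155 and 95.5 CPM against 8.06 to 33.2 CPM (median 20.2)) and the ligand exporter Disp1 (52.8, 44.9 and 41.3 CPM against 4.88 to 17.0 CPM (median 9.81)) rose without overlap, and the co-receptor Boc (0.565, 0.106 and 0.568 CPM against 1.24 to 18.3 CPM (median 7.90)) and the target Gli1 (0.174, 0.0529 and 0.0946 CPM against 0.166 to 2.79 CPM (median 1.03)) fell. Neither decrease was called with counts summed per line or with line as a random effect. Shh, Ihh and Hhip had too few counts to be tested.

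Nerve cell adhesion and axon guidance genes had 19 higher and 16 lower of 71, 26.8% and 22.5% against the background of 9.33% and 15%. Their summed level was 4645, 4579 and 4207 CPM in BURP-19NE against 1657 to 3880 CPM in the Ba/Sq tumors. The median log2 fold change of the list was nevertheless -0.999, against -0.141 over all genes, so the typical member was lower. DESeq2 called 18 higher and 26 lower. Cdh10 and Cdh12, cadherins of the brain, were at 48.4, 33.5 and 21.8 CPM against 0 to 4.77 CPM (median 0.11) and at 8.47, 3.22 and 4.45 CPM against 0 to 1.86 CPM (median 0). Cntnap4, a synaptic neurexin family member, was at 4.13, 5.60 and 8.09 CPM against 0 to 2.70 CPM (median 0), but lower than in BURP-16SR, where it was at 15.9 to 54.9 CPM. These 3 rose without overlap. Robo2, the receptor of the Slit guidance cues, was at 0.0434, 0 and 0.0946 CPM against 2.59 to 89.7 CPM (median 29.8) (log2 fold change -9.11 ± 1.37), and Chl1, of the L1 adhesion family, at 0.999, 0 and 0.757 CPM against 17.7 to 596 CPM (median 94.5) (log2 fold change -7.58 ± 1.32), each without overlap, while Cntn1 was lower with overlap. The 19 increases came to 13, 10 and 11 without C80-M1, C80-M3 and C80-M30, to 8 with the male Ba/Sq lines alone (9 without BURP-12BaSq) and to 3 with counts summed per line. The 16 decreases came to 7 with counts summed per line, 4 with line as a random effect and 10, 10 and 11 without the 3 tumors in turn.

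Ion channel and G protein signalling genes had 10 higher and 7 lower of 51. Beside Rgs6 and Trpa1, Scn2a, a neuronal sodium channel, was at 4.47, 5.39 and 10.1 CPM against 0 to 1.93 CPM (median 0.183) (log2 fold change 4.16 ± 0.77) and Cacnb2, a calcium channel subunit, at 29.5, 30.2 and 33.6 CPM against 0.0847 to 21.5 CPM (median 0.51) (log2 fold change 4.08 ± 0.98). Both were without overlap. Trpv4, a channel of urothelial stretch sensing, was at 0.565, 0.581 and 0.331 CPM against 6.76 to 44.7 CPM (median 12.8) (log2 fold change -4.96 ± 0.65), also without overlap, and Kcnh1 and Cacna1h were lower with overlap. Without 1 BURP-19NE tumor the 10 increases came to 7, whichever was left out, and the 7 decreases came to 3 without C80-M1 or C80-M3. With counts summed per line 3 were higher and 1 lower, and with line as a random effect 10 and 2.

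Of 45 cell cycle genes, 3 were higher and 12 lower. The 12 decreases came to 0 with counts summed per line, 5 with line as a random effect and 8 without C80-M1 or C80-M3. E2f8, an atypical E2F repressor, was at 241, 161 and 186 CPM against 18.7 to 44.8 CPM (median 22.7) (log2 fold change 2.91 ± 0.19, adjusted p = 1.67e-10). The kinase inhibitors Cdkn2c (p18) and Cdkn1b (p27) were at 44.0, 35.8 and 44.0 CPM against 7.52 to 28.0 CPM (median 12.1) and at 136, 130.1 and 135 CPM against 25.5 to 114 CPM (median 61.8), and rose without overlap. Cdkn2b (p15) was at 9.16, 5.34 and 8.94 CPM against 13.9 to 60.3 CPM (median 28.8), Cdkn1c (p57) at 0.565, 0.529 and 0.426 CPM against 1.13 to 24.3 CPM (median 3.32), and Ccne1 (cyclin E1) at 1.87, 2.70 and 2.93 CPM against 4.90 to 23.5 CPM (median 8.13). These 3 fell without overlap. Rb1, whose loss is common in small cell carcinoma and which was chosen after its values were seen, was at 50.5, 42.0 and 53.2 CPM against 17.0 to 34.7 CPM (median 25.4), above every Ba/Sq tumor, and its log2 fold change of 0.93 ± 0.17 missed the fold threshold. The proliferation genes Mki67, Top2a, Foxm1 and Ccnb1 were not called.

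Among 26 p53 targets and family members, 3 rose and 9 fell, with a summed level of 1143, 1099.8 and 1146 CPM in BURP-19NE against 2163 to 3628 CPM in the Ba/Sq tumors. Mdm2, the ligase that degrades p53, was at 172, 159 and 131 CPM against 45.2 to 88.8 CPM (median 57.1) (log2 fold change 1.39 ± 0.16, adjusted p = 1.55e-06), Zmat3 at 197, 208 and 301 CPM against 34.3 to 114 CPM (median 59.3) and Tnfrsf10b, a death receptor, at 30.9, 26.7 and 29.99 CPM against 7.11 to 20.6 CPM (median 13.1). No Ba/Sq tumor reached BURP-19NE in these 3. Sfn (14-3-3σ, an epithelial cell cycle brake) was at 9.56, 9.25 and 6.72 CPM against 312 to 1303 CPM (median 617) (log2 fold change -6.27 ± 0.57) and Btg2 at 11.5, 5.81 and 11.7 CPM against 34.1 to 261 CPM (median 57.0), while the family member Trp73 had 1 count against 7.49 to 75.1 CPM (median 18.6). Trp53 was not called (log2 fold change -0.31 ± 0.40). The members that fell include Trp63, Sfn and Perp, which belong to squamous cells as well. The 9 decreases came to 5 with counts summed per line and 6 with line as a random effect.

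Metabolic lists were lower. In cholesterol and fatty acid synthesis 17 of 27 fell and 0 rose, with Mvk, Dhcr7 and Cyp51 among the largest decreases (log2 fold change -2.55 ± 0.45, -2.55 ± 0.50 and -2.41 ± 0.57). Dhcr7, the last enzyme of one branch of cholesterol synthesis, was at 5.86, 4.92 and 12.8 CPM against 18.5 to 97.6 CPM (median 35.3), and none of the 3 genes overlapped. The transcription factor of the pathway, Srebf2, was not called. The 17 decreases came to 1 with counts summed per line and to 10 with line as a random effect or without C80-M1. In the hypoxia and glycolysis list 12 of 30 fell and Pfkm alone rose (log2 fold change 1.44 ± 0.34), with Ldhb at 0.521, 0.0529 and 0.142 CPM against 0.276 to 19.5 CPM (median 8.04) and Ndrg1 at 81.8, 76.7 and 49.5 CPM against 141 to 1238 CPM (median 307). Ndrg1 was without overlap and Ldhb was not, and without C80-M1 or C80-M30 8 were called lower, with counts summed per line 1 and with line as a random effect 4.

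The glutathione and NRF2 list had 11 of 33 lower and 3 higher, and with counts summed per line 2 and 1. With line as a random effect 3 were lower and 3 higher. Gpx2, a glutathione peroxidase of epithelia, had 0 counts in BURP-19NE against 19.6 to 327 CPM (median 76.8) (at least 1855-fold lower), and Gsta4 was at 0.304, 0.74 and 2.32 CPM against 37.8 to 889.8 CPM (median 277). Aldh2 (mitochondrial aldehyde dehydrogenase) was at 259.9, 359 and 286 CPM against 15.6 to 156 CPM (median 32.4) (log2 fold change 2.82 ± 0.40) and Gstp1 at 161, 198 and 139 CPM against 28.0 to 119 CPM (median 45.1). The groups were separate in these 4. Nqo1, a classical NRF2 target, was not called (log2 fold change -1.21 ± 0.89), nor was Nfe2l2 (NRF2, -0.18 ± 0.28). Of 20 retinoid genes 10 fell and 2 rose, with Crabp2 at 0.391, 0.687 and 0.426 CPM against 0.276 to 102.3 CPM (median 54.6), Stra6, the importer of retinol, at 0.912, 0.0529 and 1.51 CPM against 0.276 to 288 CPM (median 51.4), and Rdh10, the retinol dehydrogenase, at 255, 179.6 and 177 CPM against 15.9 to 97.7 CPM (median 33.4). Rdh10 was without overlap, while Crabp2 and Stra6 overlapped. The 10 decreases of retinoid genes came to 0 with counts summed per line and 1 with line as a random effect.

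Cytokine and chemokine genes had 20 of 35 lower and 2 higher, with a summed level of 114, 142 and 148.75 CPM in BURP-19NE against 176 to 772 CPM. Cxcl5 and Cxcl3, which attract neutrophils, had 3 and 1 counts against 3.71 to 56.8 CPM (median 15.2) and 0.133 to 45.01 CPM (median 6.93), and the interleukin-36 gene Il1f9 had 0 counts against 0.619 to 43.2 CPM (median 9.75). These did not overlap. Ccl27a rose (8.38, 6.66 and 6.15 CPM against 0.893 to 4.14 CPM (median 1.89)), as did Csf1, the growth factor of macrophages (42.6, 44.1 and 47.5 CPM against 5.49 to 55.97 CPM (median 18.98)), the second with overlap. Neutrophil genes moved with the chemokines, 6 of 7 tested being lower and 0 higher, and their summed level was 3.65, 1.90 and 3.50 CPM against 4.86 to 101.8 CPM. S100a8 and S100a9, among these decreases, are also members of the squamous differentiation list, so the list does not hold neutrophil genes alone. The 2 defining neutrophil genes Ly6g and Cd177 had too few counts to be tested, and Cxcr2 had 1 count in BURP-19NE against 0.0442 to 6.09 CPM (median 1.62). The part of neutrophils in the chemokine values was not tested. The 6 neutrophil decreases came to 3 when 1 BURP-19NE tumor was left out, whichever it was, 2 with counts summed per line and 0 with line as a random effect. The 20 decreases of cytokine and chemokine genes came to 7 with counts summed per line, 3 with line as a random effect, 13 with the male Ba/Sq lines alone and 13, 13 and 14 without C80-M1, C80-M3 and C80-M30.

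Interferon response and MHC class I genes had 14 of 38 lower and 0 higher, and in 2 the groups did not overlap. Their summed level was 2069, 1220 and 2506 CPM in BURP-19NE. It was as low in BURP-18BaSq, the closest Ba/Sq line, at 2645, 817 and 1877 CPM, while the other Ba/Sq tumors were at 3184 CPM or more. Tapbp, the tapasin that loads class I molecules, was at 49.7, 31.8 and 62.1 CPM against 121 to 337 CPM (median 209) (log2 fold change -2.21 ± 0.34, adjusted p = 3.53e-05) and did not overlap. Oas1a was at 3.39, 2.33 and 3.78 CPM against 2.36 to 57.2 CPM (median 27.0), Isg15 at 6.04, 2.80 and 9.51 CPM against 3.29 to 56.8 CPM (median 21.6), and H2-K1 at 285, 97.8 and 297 CPM against 60.3 to 1078 CPM (median 756) with an adjusted p of 0.0498. In these 3 C80-M3 was the lowest of the BURP-19NE tumors, and the other 2 lay within the Ba/Sq range. The 14 calls came to 7, 4 and 11 without C80-M1, C80-M3 and C80-M30, to 5 with the male Ba/Sq lines alone (6 without BURP-12BaSq) and to 1 with counts summed per line.

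Markers of other host cells were compared as well. Of 14 macrophage genes 1 was lower and the other 13 were not called, and their summed level of 446, 319 and 446 CPM lay within the Ba/Sq range of 137 to 1336 CPM. Of 15 T and NK cell genes Gzma was lower, of 6 B and plasma cell genes 0 were called, of 7 adipocyte genes Fabp4 was lower, and of 16 endothelial and pericyte genes Notch3 and Vwf were lower. Fabp4 is also a member of the urothelial surface and luminal list. With counts summed per line the decreases of T and NK cell, adipocyte and endothelial genes came to 0. Of 11 smooth muscle genes Actg2, Acta2, Tagln and Smtn were lower and Synpo2 higher. The summed level of the smooth muscle list was 289, 147 and 159 CPM against 97.4 to 462 CPM, its 4 decreases came to 0 with counts summed per line and 1 with line as a random effect, and its part in the mesenchymal values was not tested. The adipocyte list had a median log2 fold change of -5.35, and 0 of its genes were called with line as a random effect.

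Skeletal muscle genes of the host rose in the fit through 1 tumor. Of 12 tested, 10 were called higher, but their summed level was 764 CPM in C80-M1 and 5.02 and 9.46 CPM in C80-M3 and C80-M30, against 1.52 to 65.4 CPM in the Ba/Sq tumors. Myh4 (fast myosin heavy chain) was at 245, 0.37 and 0.899 CPM, Acta1 (skeletal actin) at 175, 0.37 and 1.56 CPM and Ckm (muscle creatine kinase) at 46.5, 0.0529 and 0.0473 CPM. All 12 overlapped between the groups. Without C80-M1 0 were called higher and 1 lower, and the log2 fold changes of Myh4, Acta1 and Ckm changed sign. With line as a random effect 0 were called. The part of muscle RNA in other differences was not tested beyond the fits without C80-M1.

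**Figure D4:**
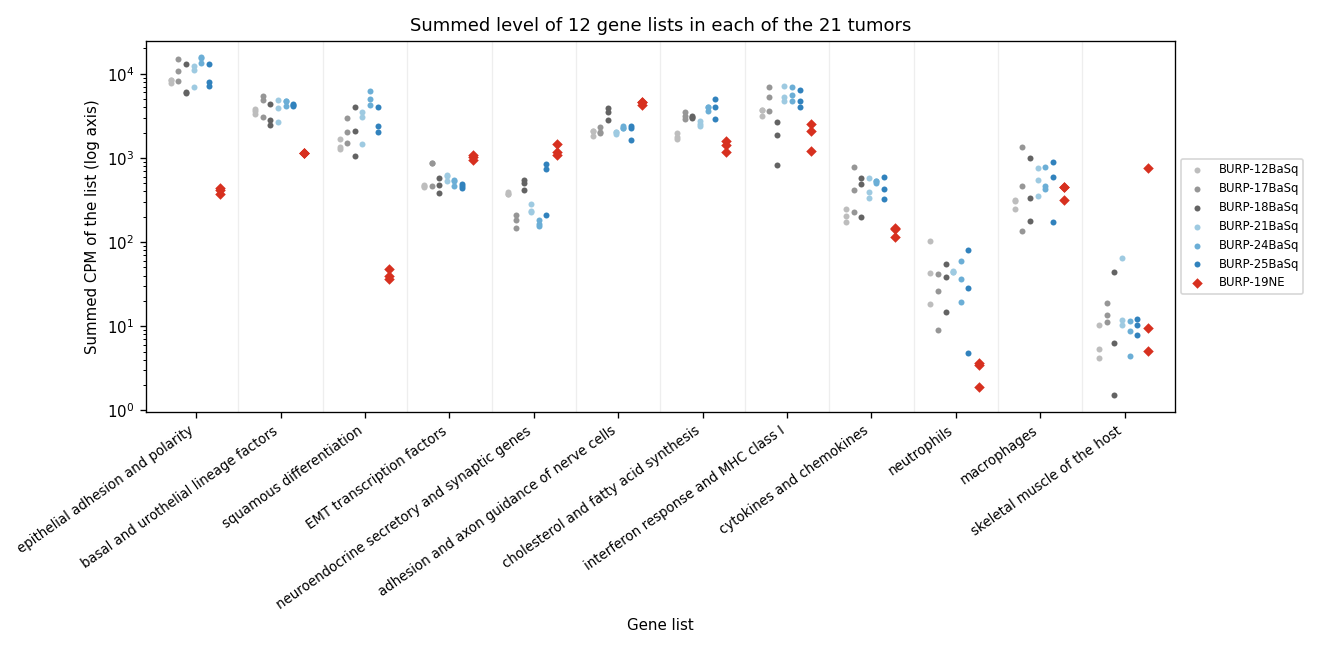
Summed level of 12 gene lists in CPM (y axis, log scale) in each of the 21 tumors, with the lists on the x axis, 1 shade for each Ba/Sq line and BURP-19NE in red. The 3 BURP-19NE tumors lie below all Ba/Sq tumors for epithelial adhesion (374 to 445 CPM against 5888 and more) and at the top for EMT factors, while for skeletal muscle C80-M1 stands alone at 764 CPM.

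BURP-16SR, the other line without squamous features, was compared with BURP-19NE in a fit of its own, which shares the 3 BURP-19NE tumors with the comparison above. Of 17556 genes tested, 8.86% were higher in BURP-19NE than in BURP-16SR and 14.8% lower. Cdh1, Trp63, Grhl2 and Snai2 were at 4.06 to 6.58, 0 to 0.232, 0 to 0.21 and 3.73 to 5.81 CPM in BURP-16SR. Of these genes Cdh1 and Snai2 were called lower in BURP-19NE also against BURP-16SR (log2 fold change -2.07 ± 0.51 and -3.84 ± 0.65). Zeb1, at 86.4 to 111 CPM in BURP-16SR, was not called between the 2 lines (0.18 ± 0.14), whereas Zeb2, Foxf1 and Nlgn1 were higher in BURP-19NE against both, with log2 fold changes against BURP-16SR of 1.28 ± 0.22, 4.21 ± 0.41 and 9.23 ± 0.77. Vim was lower than in BURP-16SR (-1.27 ± 0.16), where it was at 1444 to 1569.7 CPM, and so was Cdh2 (-7.30 ± 0.63, 34.7 to 55.2 CPM in BURP-16SR). Of the 36 genes of mesenchymal structure 0 were higher and 19 lower in BURP-19NE than in BURP-16SR. Of the adhesion list 4 members were higher and 6 lower in BURP-19NE than in BURP-16SR, and of the lineage factors 4 and 4, the others being not called or too low in both lines to be tested.

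The position of the changes was described over 13470 protein-coding genes with at least 1 CPM, of which 8.95% were higher and 15.9% lower and whose median log2 fold change was -0.10. On chromosome 16, 8 of 415 genes were higher and 97 lower, with a median of -0.62. The median difference of its genes from the Ba/Sq mean was -0.48, -0.52 and -0.42 in the 3 BURP-19NE tumors, and from -0.32 to 0.21 in the Ba/Sq tumors. Chromosome 11 was lower too (median -0.38, 54 higher and 214 lower of 1130). Its values in the 3 BURP-19NE tumors were -0.280, -0.328 and -0.232, just below the lowest Ba/Sq tumor at -0.229. Chromosomes 14 and 3 were higher, with medians of 0.37 and 0.36, 83 higher and 50 lower of 458 genes on the first and 136 and 101 of 687 on the other. On these 4 chromosomes and on chromosome 19 (0.25, 0.29 and 0.32 in BURP-19NE, at most 0.23 in the Ba/Sq tumors) the medians of the 3 BURP-19NE tumors lay outside those of all 18 Ba/Sq tumors. Such a separation was not particular to BURP-19NE. On chromosome 15 the BURP-24BaSq tumors, at 0.262 to 0.386, lay above all other tumors. On chromosome X the BURP-17BaSq tumors, at -0.247 to -0.228, lay below all others. No DNA copy number was measured in these data.

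**Figure D5:**
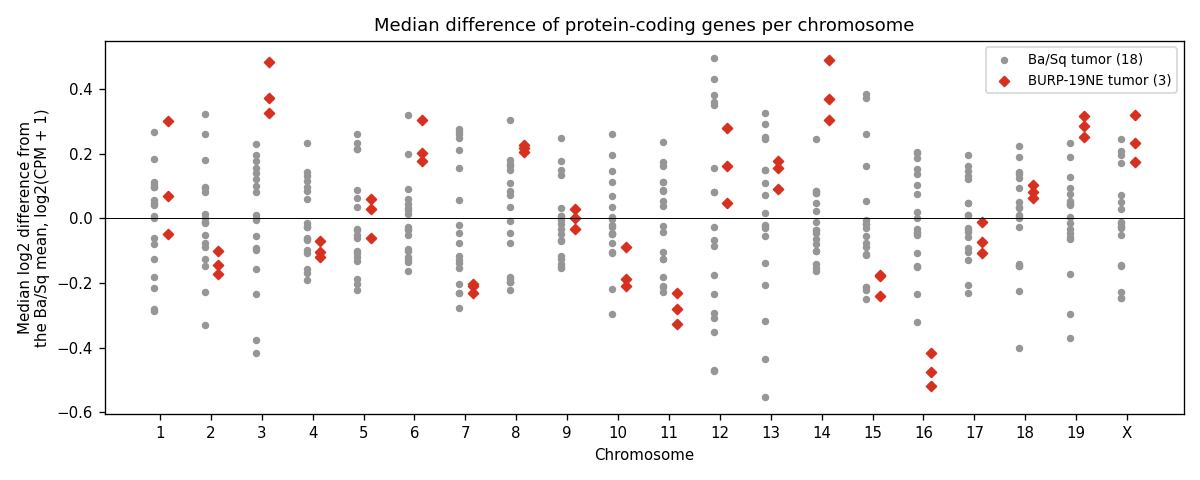
Median log2 difference from the Ba/Sq mean over the protein-coding genes of each chromosome (x axis, 1 to 19 and X) in each tumor (y axis), with the 18 Ba/Sq tumors in grey and the 3 BURP-19NE tumors in red. The red points lie outside the grey ones on chromosomes 3, 11, 14, 16 and 19, only narrowly on 11 and 19, and on chromosome 16 at -0.42 to -0.52.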

How the data were processed

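RNA-seq of whole tumors from 24 mouse tumors was used in one table. The authors depleted ribosomal RNA, aligned paired-end reads with STAR 2.6.0a to GRCm38, and deposited estimated counts per gene from RSEM 1.3.1 for 53465 genes, not normalized and with no filter stated. CASAVA 1.8.2 is also named in the submitters' processing notes. From 6.61% to 14.1% of values per tumor were not whole numbers, so counts were rounded. Gene symbols were looked up in a GRCm38 annotation that held 99.8% of the gene identifiers once version suffixes were dropped.

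The 3 tumors of BURP-19NE and 18 of the Ba/Sq lines, grouped by their labels, were normalized by TMM, filtered with filterByExpr and compared with glmQLFit and glmQLFTest of edgeR 4.0.16 in R 4.3.3. The test of BURP-19NE against BURP-16SR was a separate fit. Standard errors are the absolute log2 fold change over the root of the F statistic, and fold changes were fitted with a prior count of 0.125. Depth is given with the first results. No batch is named in the labels.

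The members and the 37 gene lists and 26 transcription factor families were chosen with earlier results of these data known. Named are, per list and direction, the 4 called members with the largest change and the defining members of lists of cell types, the 10 transcription factors with the largest change, the 12 protein-coding genes with the largest change whose tumors do not overlap and whose mean is at least 10 CPM in the higher group, and label checks. Genes outside this rule, also those named as not called, were chosen after their values were seen. Some genes that this rule names are not reported here. Promoters of 27025 genes came from RefSeq tables of GRCm38.p6.

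The fit was tested on simulated counts of 20995 genes, where it called 58 of 100 genes changed 3-fold, 83 of 100 changed 8-fold and 3 unchanged genes. For BURP-19NE against BURP-16SR, over 17556 genes, these were 39, 89 and 6. Each tumor was simulated independently, without the correlation of tumors of 1 line. These counts therefore do not give the error rate of a comparison between lines. Alternatives were the size factors of DESeq2, DESeq2 1.42.0 itself, limma 3.58.1 (voom) with line as a random effect, counts summed per line, other filters, the male Ba/Sq lines alone, all 24 tumors in 1 fit, ribosomal RNA genes left out, and each tumor or Ba/Sq line left out. The male lines without BURP-12BaSq were added as an alternative after seeing the data.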

Additional observations from a re-analysis of the deposited data

How the results depend on the processing

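Of 5108 calls, DESeq2 shared 4982 in direction, DESeq2's size factors 5038, counts summed per line 1052 and limma-voom with line as random effect 2156, and the male Ba/Sq lines shared 3870 of 4858. Without C80-M1 3482 of 5107 were kept and 20 genes changed sign, without C80-M3 3379 of 5108 and without C80-M30 3760, with no change of sign there. Genes called higher came to 489, lower to 598, and list members higher and lower to 37 and 103, from counts summed per line. With limma-voom 1601 genes and 103 list members were higher, and 670 genes and 97 list members lower. The cause was not tested, though summing per line leaves 1 sample for BURP-19NE. With 1 tumor left out, genes called lower ranged from 2016 to 3341 and genes called higher from 1511 to 1995, and against BURP-16SR from 1759 to 3603 and from 1038 to 1942. Of 219 named genes that were called, 63 kept their call in every setting that gave a value.

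Some fold changes reversed. With 1 tumor left out, the log2 fold change of Acta1 ran from -0.788 to 6.062, of Ckm from -2.642 to 6.030, of Myh4 from -0.884 to 7.698, of Foxa1 from -0.149 to 0.256 and of Syp from -0.263 to 0.222. Foxa1 was at -0.044 with the male lines alone and at -0.116 when BURP-12BaSq was left out of these. Syp was at 0.125 with all 24 tumors in 1 fit, 0.307 with limma-voom and 0.312 without BURP-18BaSq. Ddx3y was at 3.627, 2.813 and 0.464 with all 24 tumors, limma-voom and without BURP-12BaSq, Uty at 2.645, 2.181 and 0.686, Kdm5d at 2.202, 1.637 and 0.226, and Eif2s3y at 2.493 and 1.692 in the first 2 of these. The median of chromosome 16 was -0.561 with the male lines alone. No paired analysis was possible because the replicate numbers are in accession order and mark no shared animal or day.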
